A study of Mus musculus with 12 samples.

Results

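Endothelial cells of the embryonic mouse heart were examined for 10 genes whose products control passage across an endothelial layer. They are Plvap, whose product forms the diaphragms of fenestrae, and 9 genes of tight junctions and their neighbours: Cldn5, Ocln, Tjp1, Cgn, Cgnl1, F11r, Jam2, Jam3 and Esam. The 10 were taken by symbol from a count table of 41214 genes, and all 10 were among the 15171 genes with enough counts to be tested.

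Each library was made from polyA RNA of cells sorted from dissociated ventricles, atria and aortic region having been taken off, and there were 12 libraries. The 4 groups were endocardial and coronary cells at embryonic day 13 (E13, collected at E13.5, 4 libraries each) and the same populations at embryonic day 17 (E17, collected at E17.5, 2 libraries each). E13 embryos carried the Nes-gfp transgene (Tg/0), a fluorescent reporter under nestin sequences. E17 embryos carried Nes-gfp (Tg/0) together with Nes-CreER (Tg/0) and 1 R26 tom allele (tom/+), and received 0.1 ug tamoxifen at E15.5. All sorts took viable, Ter119-negative, CD45-negative, CD31-positive cells. The E13 endocardial gate added low GFP and high Emcn, and the E13 coronary gate added GFP. The E17 endocardial gate is described as GFP-positive only. The design text gives a pair of coronary gates at E17, both GFP-positive and Emcn-low, one Tomato-positive for arterial vessels and capillaries and one Tomato-negative with low GFP for veins. Which of these sorts yielded the E17 coronary libraries is not given by the labels. The groups are described by the submitters as enriched, not pure. Stage therefore goes together with the added alleles, tamoxifen, the batch given in the labels and the gate, and these cannot be told apart.

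Tight junctions seal the gap between neighbouring endothelial cells. Claudins and occludin span the membrane and form the strands, claudin-5 being the main claudin of endothelium, while junctional adhesion molecules sit beside them and scaffold proteins such as ZO-1, cingulin and paracingulin tie the strands to actin. Plvap protein instead bridges the openings of fenestrae, caveolae and transendothelial channels, and in the brain it is known to be lost from vessels as claudin-5 and the barrier are established.

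Levels are in CPM, which puts counts from libraries of unequal depth on one scale, with totals adjusted by TMM, a factor that corrects for differences in RNA composition, and means carry the SD over libraries. Totals ran from 14973633 to 27360653 expected counts. Fold changes are log2 values ± SE from edgeR's quasi-likelihood fit over all 12 libraries, and a gene passed at an adjusted p below 0.05. Separate litters are not stated in the labels, and p-values rest on the spread from library to library, which may be in part technical. In bulk RNA, fewer cells of a type and less RNA per cell cannot be told apart.

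The libraries were first checked against marker lists. A list of 10 pan-endothelial genes summed to 9424 to 10470 CPM in E13 endocardial, 6120 to 8227 CPM in E13 coronary, 10420 to 11020 CPM in E17 endocardial and 11530 to 13120 CPM in E17 coronary libraries. In coronary cells 9 of those 10 genes rose from E13 to E17, with a median log2 change of 0.69, where 24.6% of all genes tested rose. The 9 endocardial markers summed to 4267 to 6037 CPM in endocardial against 473.1 to 2184 CPM in coronary libraries. At E13 only 5 of those 9 were lower in coronary cells, Nfatc1, Gata4 and Gata5 did not pass, and Tbx20 was higher (449.2 against 32.2 CPM). At E17 8 were lower and Tbx20 again was higher. Of all genes tested 29.9% were lower and 30.1% higher in coronary cells at E13, and 26.1% and 26.5% at E17. The product of Emcn, in the endocardial list, and CD31, encoded by Pecam1 of the pan-endothelial list, were used for sorting. The 10 genes of a coronary capillary list summed to 919 to 1791 CPM in E13 coronary and 6888 to 9108 CPM in E17 coronary libraries, against 91.0 to 123.5 CPM and 432.3 to 442.3 CPM in E13 and E17 endocardial ones. The E13 coronary libraries stood apart from each other. Their summed level of 11 fibroblast genes was 2248, 4381, 5773 and 4038 CPM in replicates 1 to 4, against 1264 to 1534 CPM in the E13 endocardial libraries. The E17 coronary pair also differed, at 3907 and 1777 CPM in replicates 1 and 2, against 1301 to 1450 CPM in E17 endocardial libraries. No fibroblast marker was at 0 in any group. Pan-endothelial sums in the 4 E13 coronary libraries were 8227, 6737, 6120 and 7073 CPM. Among these 4, replicate 1 was thus lowest for fibroblast and highest for endothelial markers, and replicate 3 the reverse. Their part in the results was not tested, and the E13 results were recomputed without each of them. The 12 mural genes summed to 387.1 to 771.4 CPM in E13 coronary and 877.5 to 1142 CPM in E17 coronary libraries, against 205.5 to 270.4 CPM in endocardial ones. Over all 12 libraries leukocyte genes summed to 4.67 to 26.7 CPM, with Ptprc and Aif1 at 0 in E17 coronary cells, and platelet genes to 35.6 to 53.6 CPM. Cardiomyocyte genes summed to 195.1 to 445.9 CPM and erythroid genes to 31.8 to 790.7 CPM, with overlapping ranges in the 4 groups.

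**Figure D1:**
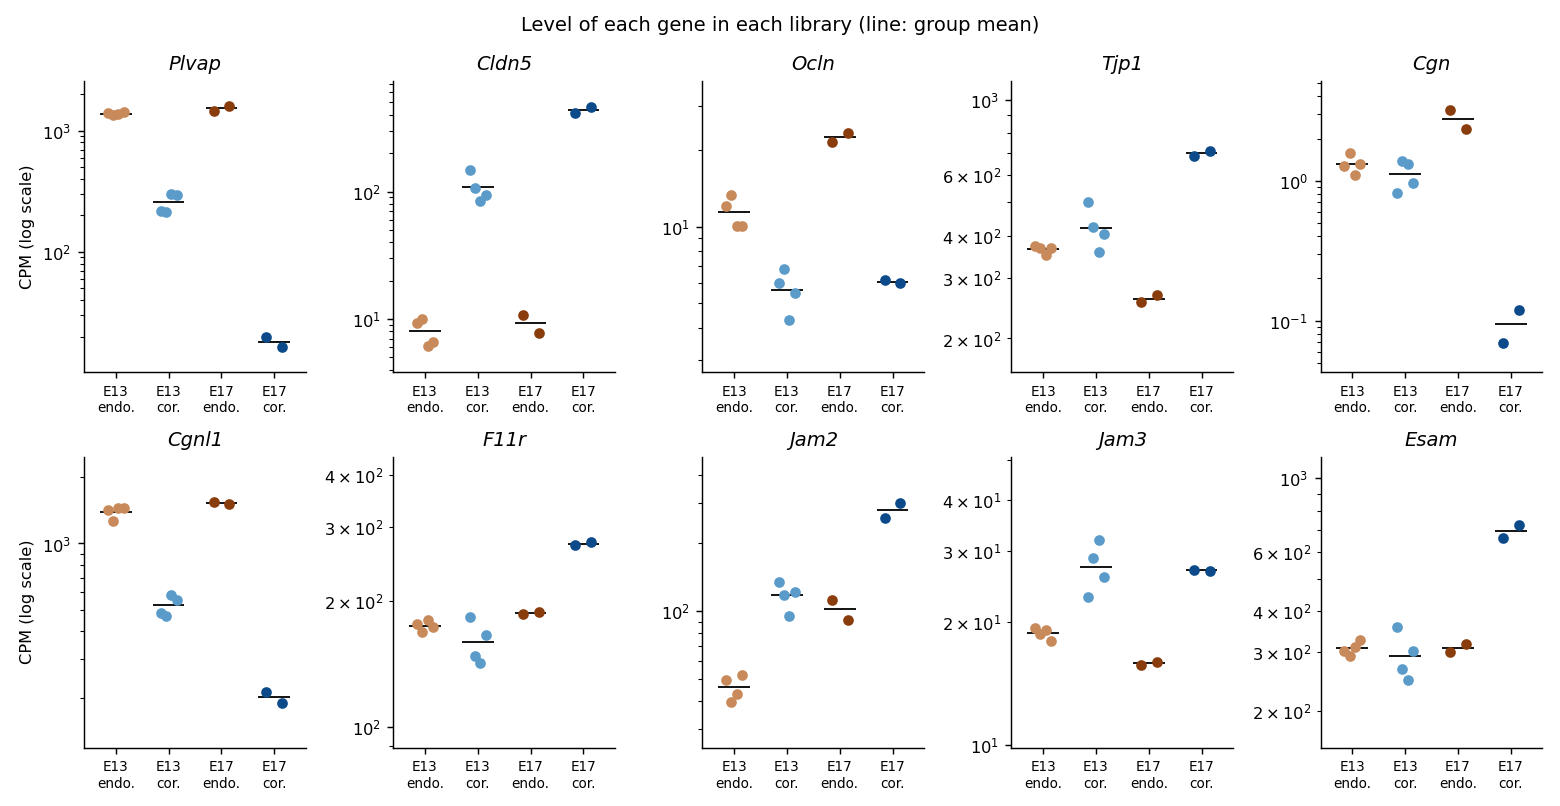
Level of the 10 genes in each of the 12 libraries, in CPM on a log axis that differs between panels; points are libraries, lines are group means, brown is endocardial (endo.) and blue is coronary (cor.). Plvap stood at 1355 CPM or more in every endocardial library and at 298 CPM or less in every coronary library, while Cldn5 was at 10.8 CPM or less in every endocardial library and at 84.0 CPM or more in every coronary library.

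At E13, Plvap, Cgnl1 and Ocln were lower in coronary than in endocardial cells, Cldn5, Jam2, Jam3 and Tjp1 were higher, and Esam, F11r and Cgn did not pass. At E17 every one of the 10 passed. Plvap, Cgn, Cgnl1 and Ocln were lower in coronary cells and Cldn5, Jam2, Tjp1, Esam, Jam3 and F11r were higher.

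At E13, 7 of the 10 passed, 4 higher and 3 lower, where 60.0% of all genes tested passed, 30.1% higher and 29.9% lower. The count is thus close to the background of that comparison. Of the 7, 5 differed by at least 2-fold, a size reached by 18.0% of all genes. At E17, 10 of 10 passed, 6 higher and 4 lower, against 52.6% of all genes, 26.5% higher and 26.1% lower. Of these 8 reached 2-fold, against 21.9% of all genes. Groups did not overlap in CPM for 6 of 10 genes at E13 and for 10 of 10 at E17, against 55.5% and 76% of all genes. The median log2 difference of the 10 was -0.10 at E13 and 0.66 at E17, beside -0.02 and -0.01 over all genes tested.

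Between stages, 8 of the 10 differed in the coronary cells and 4 in the endocardial cells. In coronary cells Cldn5, Jam2, Esam, F11r and Tjp1 were higher at E17 and Plvap, Cgn and Cgnl1 were lower, where 50.1% of all genes passed, 24.6% higher and 25.6% lower. Of the 8, 6 changed at least 2-fold, against 17.6% of all genes, and 8 of 10 did not overlap, against 60.5%. In the same coronary libraries 9 of the 10 pan-endothelial genes rose (list median 0.69), beside log2 rises of 1.24 for Esam, 1.25 for Jam2, 0.78 for F11r and 0.72 for Tjp1, and the part of that list in them was not tested. In endocardial cells Jam2, Cgn and Ocln were higher at E17 and Tjp1 was lower, where 31.8% of all genes passed, 16.2% higher and 15.6% lower. Of the 4, 2 changed at least 2-fold, against 6.86% of all genes, and 8 of 10 did not overlap, against 52.6%. The median log2 change of the 10 was 0.41 in coronary and 0.14 in endocardial cells, beside -0.02 and 0.00 over all genes. Both stage comparisons and both population comparisons share libraries, so they are not independent of each other.

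The population difference itself changed from E13 to E17 for 8 of the 10 in the interaction test, where 32.7% of all genes passed. The difference grew more negative for Plvap, Cgn, Cgnl1 and Ocln and more positive for Cldn5, Esam, Tjp1 and F11r, against backgrounds of 16.5% and 16.2%. Jam2 and Jam3 did not pass. Their differences of differences were 0.10 ± 0.20 (edgeR adjusted p = 0.733) and 0.21 ± 0.15 (adjusted p = 0.324).

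**Figure D2:**
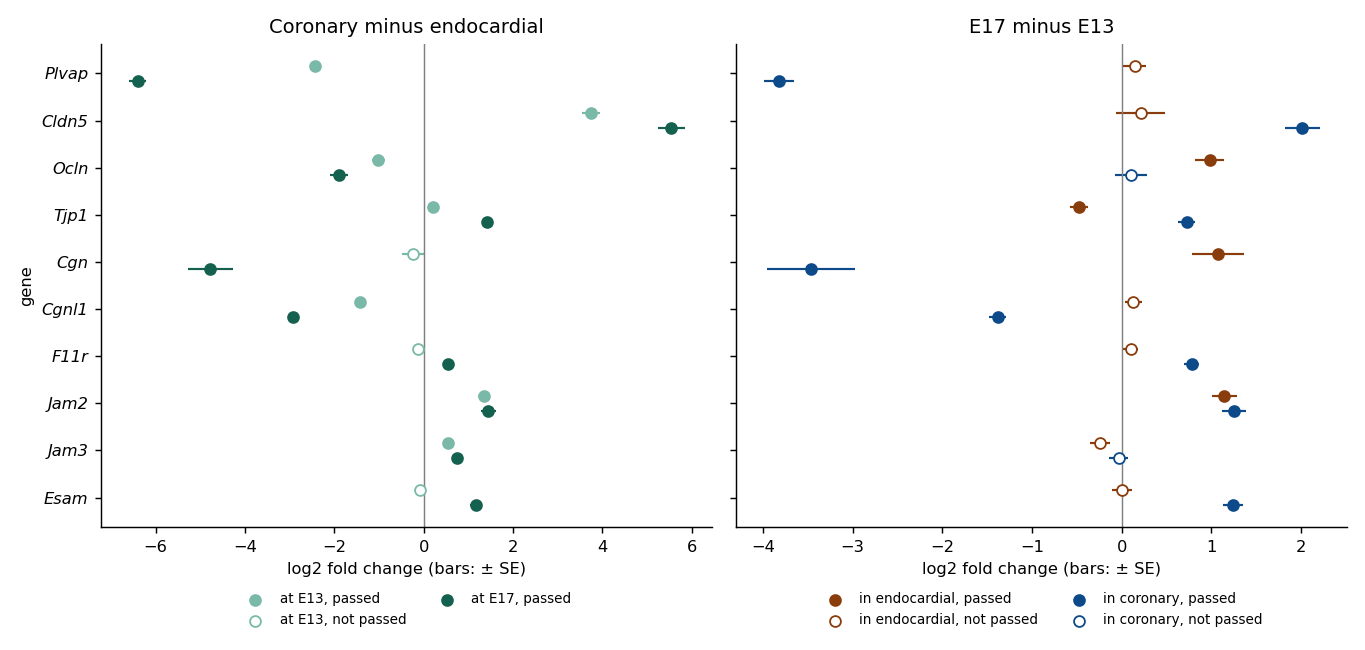
Log2 fold changes of the 10 genes with their SE (bars), for coronary minus endocardial cells (left) and for E17 minus E13 (right); filled points passed an edgeR adjusted p of 0.05 and open points did not. Left, the E17 point lies farther from 0 than the E13 point for each gene, from 5.54 for Cldn5 to -6.40 for Plvap; right, the coronary points run from -3.82 for Plvap to 2.01 for Cldn5 and the endocardial points from -0.48 for Tjp1 to 1.14 for Jam2.

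Plvap (ENSMUSG00000034845, chr8:71497765-71511752, minus strand, GRCm38) was the most abundant of the 10 per length in endocardial cells. The E13 endocardial libraries held 1399, 1355, 1371 and 1418 CPM and the E13 coronary libraries 218.9, 214.8, 298 and 292.9 CPM. At E17 the endocardial libraries held 1456 and 1608 CPM and the coronary libraries 19.96 and 16.3 CPM. Every endocardial library was thus above every coronary library, and both E17 coronary libraries were far below all 4 E13 coronary libraries. The coronary minus endocardial difference was -2.44 ± 0.11 at E13 (edgeR adjusted p = 6.21e-09), a 5.41-fold lower level. At E17 it was -6.40 ± 0.19 (edgeR adjusted p = 4.59e-10), which is 84.7-fold lower. By size these were the changes of rank 163 and rank 70 from the most negative among the 15171 genes. Within the 4 E13 batches, each of which held 1 library of either population, the difference ran from -2.68 to -2.20, and in the E17 batches it was -6.19 and -6.62.

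Between stages Plvap moved in one population. In coronary cells it fell by 3.82 ± 0.17 on the log2 scale, or 14.2-fold (edgeR adjusted p = 1.28e-08). In endocardial cells the change was 0.14 ± 0.13, which did not pass (edgeR adjusted p = 0.433), although both E17 libraries lay above all 4 E13 libraries. With only the endocardial libraries in the fit it did pass, at 0.15 and an adjusted p of 0.0415. The interaction was -3.97 ± 0.20 (edgeR adjusted p = 1.38e-07). Without E13 coronary replicate 1 or replicate 3 the E13 difference was -2.34 or -2.50.

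Residual Plvap in coronary libraries can be set beside the endocardial markers measured in the same RNA. Mean coronary Plvap was 18.5% of mean endocardial Plvap at E13 and 1.18% at E17. For Npr3, an endocardial marker encoding a natriuretic peptide receptor, the same shares were 13.3% and 0.499%, and for the cadherin gene Cdh11 they were 24.5% and 2.30%. Over the 9 endocardial markers the share ran from 13.3% to 1394% at E13, with a median of 59.4%, and from 0.499% to 362.4% at E17, with a median of 10.7%. The Plvap share lay between those of Npr3 and Cdh11 at both stages. Carried-over endocardial RNA and expression in coronary cells cannot be told apart by these values.

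Cldn5 (ENSMUSG00000041378, chr16:18776847-18778262, plus strand) encodes claudin-5. RefSeq's start site for it (GRCm38.p6) lies at the first base of the gene model, and the 250 bases before it are shown here because Cldn5 had the largest positive fold changes of the 10 genes at both stages. Those of Cgnl1, the most abundant gene with a promoter entry that was lower in coronary cells, follow for comparison. Both are written 5′ to 3′ on the strand of the gene. Capitals mark matches to the searched motifs.
Cldn5 chr16:18776597-18776846 (+): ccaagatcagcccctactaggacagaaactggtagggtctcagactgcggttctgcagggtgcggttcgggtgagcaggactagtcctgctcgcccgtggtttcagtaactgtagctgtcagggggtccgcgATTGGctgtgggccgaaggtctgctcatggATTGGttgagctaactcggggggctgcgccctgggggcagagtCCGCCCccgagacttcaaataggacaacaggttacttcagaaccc
Cgnl1 chr9:71771603-71771852 (-): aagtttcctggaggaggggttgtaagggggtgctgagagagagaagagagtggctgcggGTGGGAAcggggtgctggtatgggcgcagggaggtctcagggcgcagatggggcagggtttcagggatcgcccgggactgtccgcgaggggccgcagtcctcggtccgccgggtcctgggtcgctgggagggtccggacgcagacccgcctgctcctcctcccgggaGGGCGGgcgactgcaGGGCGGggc

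In the Cldn5 window the capitals are 2 matches to the CCAAT box (CCAAT) and 1 to the GC box (GGGCGG), all 3 on the reverse strand. In the Cgnl1 window they are 1 match to an RBPJ motif (GTGGGAA) and 2 to the GC box, all on the gene's own strand. None of these matches overlaps another. Of 32851 RefSeq upstream windows of 250 bases, 33.8% held the CCAAT box, 32.7% the GC box and 5.42% the RBPJ motif on either strand. Neither window held the searched ETS (GGAAGT), SOX (ACAATG), TCF/LEF (CTTTGA) and FOX (TGTTTAC) letters, those for KLF factors (GGGTGTG) or for GATA factors (AGATAA), or the TATA box (TATAAA). These stood in 19.7%, 10.7%, 13.8%, 3.17%, 6.93%, 9.99% and 12.4% of all windows. GC content was 59.6% for Cldn5 and 70.8% for Cgnl1, beside a median of 52.4% over all windows. Of the 10 genes 6 were matched to a promoter entry, and Plvap, Esam, Jam2 and Jam3 were not. The GC box was found in all 6 and the CCAAT box in 4, Cldn5, F11r, Cgn and Ocln.

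Cldn5 was low in endocardial cells and rose with stage in coronary cells. The E13 endocardial libraries held 9.40, 9.94, 6.15 and 6.66 CPM and the E13 coronary libraries 147.8, 107.4, 84.0 and 94.5 CPM. At E17 the endocardial libraries held 10.8 and 7.84 CPM and the coronary libraries 413.6 and 460.2 CPM. Coronary libraries were above endocardial libraries throughout, and the E17 coronary libraries above all E13 coronary libraries. The coronary minus endocardial difference was 3.74 ± 0.20 at E13 (13.3-fold, edgeR adjusted p = 2.26e-08) and 5.54 ± 0.30 at E17 (46.5-fold, adjusted p = 2.54e-08). Within batches it ran from 3.43 to 3.97 at E13 and was 5.25 and 5.87 at E17.

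From E13 to E17, Cldn5 rose 4.03-fold in coronary cells (2.01 ± 0.20, edgeR adjusted p = 4.54e-06). In endocardial cells the change was 0.21 ± 0.28 (edgeR adjusted p = 0.613) with overlapping libraries, and it was -0.05 without E17 endocardial replicate 1. The interaction was 1.802 ± 0.34 (edgeR adjusted p = 0.00162). Among the E13 coronary libraries, Cldn5 was highest in replicate 1, the library lowest in fibroblast markers, and lowest in replicate 3, the library highest in them. Without replicate 1 the E13 difference was 3.58 ± 0.15, and without replicate 3 it was 3.86 ± 0.18.

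Endocardial Cldn5 was 7.41% of the coronary mean at E13 and 2.13% at E17. The 10 coronary capillary markers gave shares from 1.61% to 44.5% at E13, with a median of 9.85%, and from 0.304% to 14.96% at E17, with a median of 2.76%. The Cldn5 share was thus below the median of that list at both stages and within its range.

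Set against each other in the same library, Cldn5 and Plvap counts gave a log2 ratio of -7.21, -7.09, -7.80 and -7.73 in the E13 endocardial libraries and -0.57, -0.999, -1.83 and -1.63 in the E13 coronary libraries. The E17 endocardial libraries were at -7.07 and -7.67 and the E17 coronary libraries at 4.37 and 4.82. Plvap counts thus outnumbered Cldn5 counts in 10 of 12 libraries, and the E17 coronary pair were the exceptions. The means were -7.46 ± 0.36, -1.26 ± 0.58, -7.37 ± 0.43 and 4.59 ± 0.32 in that order.

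**Figure D3:**
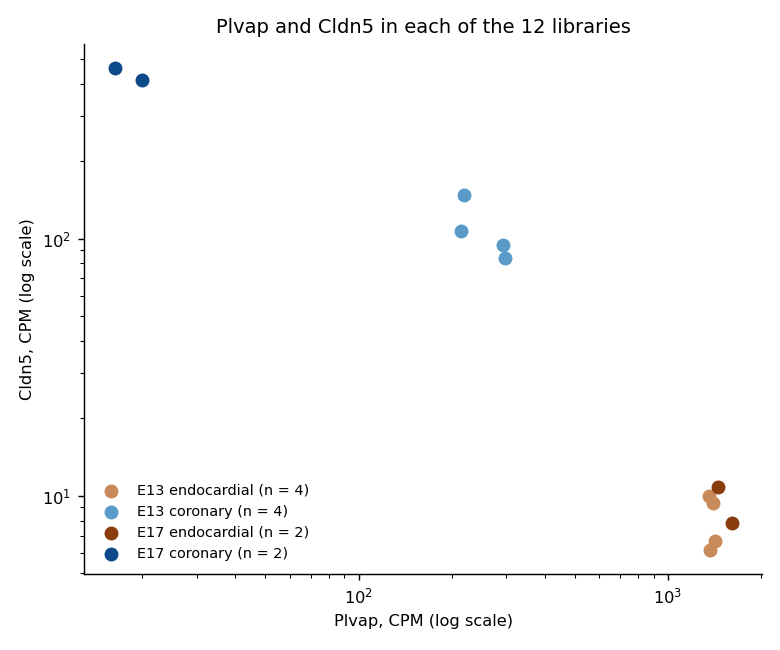
Plvap (x axis) against Cldn5 (y axis) in each of the 12 libraries, both in CPM on log axes, with 1 point per library coloured by group. The 6 endocardial libraries lie together at the lower right, the 4 E13 coronary libraries between 214.8 and 298 CPM of Plvap, and the 2 E17 coronary libraries at the upper left, at 16.3 and 19.96 CPM of Plvap.

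Ocln (ENSMUSG00000021638, chr13:100496507-100552718, minus strand) encodes occludin, the other strand protein among the 10, and its difference was opposite in sign to that of Cldn5. The E13 endocardial libraries held 12.1, 13.4, 10.05 and 10.1 CPM and the E13 coronary libraries 6.00, 6.84, 4.29 and 5.49 CPM. At E17 the endocardial libraries held 21.6 and 23.5 CPM and the coronary libraries 6.17 and 5.99 CPM. No coronary library reached the lowest endocardial one. The coronary minus endocardial difference of Ocln was -1.01 ± 0.14 at E13 (adjusted p = 6.23e-05 by edgeR) and -1.89 ± 0.21 at E17 (adjusted p = 8.49e-06). It rose 0.98 ± 0.16 in endocardial cells from E13 to E17 (edgeR adjusted p = 0.000703), while the coronary change of 0.10 ± 0.18 did not pass (adjusted p = 0.677). The interaction was -0.88 ± 0.25 (edgeR adjusted p = 0.0168), and it did not pass without E17 endocardial replicate 2 (adjusted p = 0.0633) or E17 coronary replicate 2 (adjusted p = 0.0676).

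Occludin is abundant in epithelia, and markers of epicardial and epithelial cells were measured in the same libraries. At E13, 8 of the 11 tested genes of that list were higher in coronary cells and 1 lower, with a median log2 difference of 1.605. Over all genes tested 30.1% were higher and 29.9% lower there. At E17 4 of the list were higher and 2 lower, with a median of -1.04, beside 26.5% and 26.1% of all genes. The summed level of the 13 genes in the table was 19.0 to 23.2 CPM in E13 endocardial, 85.9 to 99.5 CPM in E13 coronary, 16.7 to 17.1 CPM in E17 endocardial and 145 to 157.6 CPM in E17 coronary libraries. Most of the E17 coronary sum was Wt1, at 118.5 CPM. The 2 that were lower in coronary cells at E17 were the keratin genes Krt8 and Krt18, at 0 against 0.234 CPM and 0.188 against 1.31 CPM. The 4 that were higher were Wt1, Tbx18, Aldh1a2 and a further keratin gene, Krt19, at 4.705 against 0.803 CPM. The keratin gene Krt7 did not pass. The epithelial genes Cdh1 and Epcam were too low to be tested. Cdh1 was at 0 in 3 of the 4 groups and at 0.027 ± 0.039 CPM in E17 endocardial cells. Epcam was at 0.311 and 0.142 CPM in E13 and E17 endocardial cells, and at 0.116 and 0.069 CPM in E13 and E17 coronary cells. The part of those markers in the Ocln result was not tested.

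Tjp1 (ENSMUSG00000030516, chr7:65296165-65527781, minus strand) encodes ZO-1, the scaffold beneath the strands. Endocardial libraries held 371.8, 368, 350.4 and 366.9 CPM at E13 and 255.2 and 268.2 CPM at E17. Coronary libraries held 500.0, 424.4, 357.1 and 404.4 CPM at E13 and 683.9 and 708.4 CPM at E17. The populations overlapped at E13, where coronary replicate 3 was below 3 of the 4 endocardial libraries, and were far apart at E17. The difference was 0.21 ± 0.08 at E13 (adjusted p = 0.0394 by edgeR) and 1.41 ± 0.12 at E17 (adjusted p = 8.46e-07). The E13 call was lost without any 1 of the 4 E13 endocardial libraries (edgeR adjusted p from 0.0602 to 0.0944), without either E17 endocardial library (0.0507 and 0.0512) or without E17 coronary replicate 2 (0.0506).

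Tjp1 moved in opposite directions with stage. It fell by 0.48 ± 0.10 in endocardial cells (edgeR adjusted p = 0.00349) and rose 0.72 ± 0.10 in coronary cells (adjusted p = 5.77e-05). The interaction was 1.202 ± 0.14 (edgeR adjusted p = 5e-05).

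Cgnl1 (ENSMUSG00000032232, chr9:71626509-71771602, minus strand) encodes paracingulin, a cytoplasmic plaque protein of tight and adherens junctions. Its order of groups was that of Plvap. Endocardial libraries held 1420, 1262, 1451 and 1447 CPM at E13 and 1546 and 1507 CPM at E17. Coronary libraries held 482.7, 471.3, 584.7 and 554.6 CPM at E13 and 211.2 and 189.6 CPM at E17. The highest coronary library, at 584.7 CPM, was far below the lowest endocardial one, at 1262 CPM. The population difference of Cgnl1 was -1.41 ± 0.08 at E13 (adjusted p = 2.23e-08 by edgeR) and -2.93 ± 0.11 at E17 (adjusted p = 2.24e-09). It fell by 1.38 ± 0.10 in coronary cells from E13 to E17 (edgeR adjusted p = 4.18e-07), and the endocardial change of 0.13 ± 0.09 did not pass (adjusted p = 0.313). The interaction was -1.51 ± 0.13 (edgeR adjusted p = 5.32e-06).

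Cgn (ENSMUSG00000068876, chr3:94760069-94786492, minus strand) encodes cingulin, a relative of paracingulin that is best known from epithelial junctions. It was the least abundant of the 10. The E13 libraries held 1.28, 1.58, 1.10 and 1.31 CPM in endocardial and 0.811, 1.39, 1.31 and 0.960 CPM in coronary cells. At E17 the endocardial libraries held 3.22 and 2.33 CPM, from 59 and 36 counts, and the coronary libraries 0.0686 and 0.120 CPM, from 1 and 2 counts. The populations overlapped at E13 and not at E17. The E13 difference of -0.23 ± 0.25 did not pass (edgeR adjusted p = 0.448), and the E17 difference did (adjusted p = 5.83e-06). Over both libraries of each group, 95 against 3 counts at E17 is a depth-scaled ratio of 29.1 (95% exact interval 9.68 to 143.9, counting error only). The fall from E13 to E17 in coronary cells, 91 against 3 counts, is a ratio of 13.2 (interval 4.37 to 65.1; edgeR adjusted p = 8.77e-05). The rise in endocardial cells, 1.08 ± 0.29 (edgeR adjusted p = 0.0128), did not pass without E17 endocardial replicate 1 (0.82, adjusted p = 0.166). The interaction passed (edgeR adjusted p = 8.17e-05).

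Markers of other cells moved in the same endocardial libraries. A list of 6 lymphatic genes summed to 52.1 to 64.3 CPM at E13 and to 192.5 and 246.5 CPM at E17, with Lyve1 the most abundant at 111.2 and 178.5 CPM at E17. Of the 6, 4 were higher at E17 and 1, Mmrn1, was lower (10.54 to 6.435 CPM). The coronary capillary sum was 91.0 to 123.5 CPM at E13 and 432.3 and 442.3 CPM at E17, with 5 of 10 genes higher and 1 lower, and Cd36 went from 11.6 to 160.1 CPM. The fibroblast sum was 1264 to 1534 CPM at E13 and 1301 and 1450 CPM at E17, and 5 of its 11 genes were higher and 1 lower. The higher ones were Dcn (2.94 to 130.8 CPM), Lum (6.40 to 120.1 CPM), Col1a2, Pdgfra and Mfap5. The lower one was Col3a1, the most abundant of the list (1173 to 495 CPM). Over all genes tested 16.2% were higher and 15.6% lower. The part of those markers in the endocardial rise of Cgn, Ocln and Jam2 was not tested.

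F11r (ENSMUSG00000038235, chr1:171437535-171464603, plus strand) encodes JAM-A, 1 of the 3 junctional adhesion molecules measured. Endocardial libraries held 176.4, 168.4, 179.9 and 172.9 CPM at E13 and 185.9 and 188 CPM at E17. Coronary libraries held 183.5, 147.9, 142.4 and 165.6 CPM at E13 and 272.1 and 276.9 CPM at E17. The populations overlapped at E13 and not at E17. The difference was -0.13 ± 0.07 at E13 (adjusted p = 0.13 by edgeR) and 0.55 ± 0.10 at E17 (adjusted p = 0.0004). Without E13 coronary replicate 1 the E13 difference passed, at -0.17 (edgeR adjusted p = 0.0115). F11r rose 0.78 ± 0.08 in coronary cells from E13 to E17 (edgeR adjusted p = 8.02e-06), and the endocardial change of 0.10 ± 0.08 did not pass (adjusted p = 0.402). The interaction was 0.68 ± 0.12 (edgeR adjusted p = 0.000893).

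Jam2 (ENSMUSG00000053062, chr16:84774123-84825928, plus strand) encodes JAM-B, and it differed both by population and by stage. Endocardial libraries held 49.8, 39.9, 42.9 and 52.5 CPM at E13 and 112.5 and 91.8 CPM at E17. Coronary libraries held 134.5, 117.8, 95.5 and 122 CPM at E13 and 256.9 and 300.8 CPM at E17. Coronary libraries were above endocardial ones at each stage, and E17 libraries above E13 ones in each population. The population difference was 1.34 ± 0.12 at E13 (adjusted p = 1.12e-06 by edgeR) and 1.45 ± 0.16 at E17 (adjusted p = 1.18e-05). The stage difference was 1.14 ± 0.14 in endocardial cells (edgeR adjusted p = 7.95e-05) and 1.25 ± 0.13 in coronary cells (adjusted p = 1e-05).

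Jam3 (ENSMUSG00000031990, chr9:27097384-27155421, minus strand) encodes JAM-C. Its exons share 1159 bases with Gm48796, an antisense gene, and the libraries do not mark strand, so its counts are uncertain to that extent. Endocardial libraries held 19.3, 18.7, 19.1 and 18.0 CPM at E13 and 15.7 and 16.01 CPM at E17, and coronary libraries 23.1, 28.8, 31.9 and 25.8 CPM at E13 and 26.9 and 26.8 CPM at E17. Coronary libraries were above endocardial ones at both stages. The difference was 0.55 ± 0.09 at E13 (adjusted p = 0.000154 by edgeR) and 0.76 ± 0.13 at E17 (adjusted p = 0.000281). Neither stage change passed, at -0.24 ± 0.11 in endocardial (edgeR adjusted p = 0.117) and -0.03 ± 0.11 in coronary cells (adjusted p = 0.827). With only the endocardial libraries in the fit the former did pass (adjusted p = 0.0363).

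Per kilobase of exon, JAM-A transcripts made up most of the 3 junctional adhesion molecules in every group. F11r took 82.9% ± 0.91 of their summed level in E13 endocardial, 68.1% ± 1.7 in E13 coronary, 76.3% ± 2.1 in E17 endocardial and 65.4% ± 1.8 in E17 coronary cells. Jam2 took 9.68% ± 1.1, 22.02% ± 1.4, 18.3% ± 2.3 and 29.2% ± 2.1 in the same order. The Jam2 share was above the endocardial one in every coronary library of the same stage. Jam3 took between 5.16% and 12.6% in every library. These shares rest on exon lengths of 2663 bases for F11r and 6045 bases for Jam2. Before division by length, E17 coronary means were 274.5 CPM for F11r and 278.9 CPM for Jam2.

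Esam (ENSMUSG00000001946, chr9:37528078-37538319, plus strand) encodes an endothelial adhesion molecule of the same immunoglobulin family that localises to tight junctions. Endocardial libraries held 303.8, 292.7, 312 and 326.1 CPM at E13 and 300.0 and 319.1 CPM at E17. Coronary libraries held 356.6, 267.3, 248.3 and 302.2 CPM at E13 and 660.0 and 725.8 CPM at E17. The E13 coronary libraries spread on both sides of the endocardial ones, and the E17 coronary libraries were above all others. The difference was -0.07 ± 0.09 at E13 (edgeR adjusted p = 0.53), with 1 batch higher and 3 lower, and 1.16 ± 0.13 at E17 (adjusted p = 1.42e-05). Esam rose 1.24 ± 0.11 in coronary cells (edgeR adjusted p = 2.32e-06), while the endocardial change was 0.00 ± 0.12 (adjusted p = 0.984). The interaction was 1.24 ± 0.16 (edgeR adjusted p = 0.000125).

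The spread among E13 coronary libraries followed the same 2 libraries for several of the genes. Replicate 1 held the highest level of Cldn5, Tjp1, Esam, Jam2 and F11r, and replicate 3 the lowest level of those 5 and of Ocln. Replicate 3 also held the highest level of Plvap, Cgnl1 and Jam3. Without replicate 1, 8 of the 10 genes passed at E13, where 58.4% of all genes did, and without replicate 3, 7 passed, where 58.9% did. Between stages in coronary cells 8 passed with either one left out, against 50.8% and 48.6% of all genes.

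Per length, the order of the genes differed between populations. In E13 endocardial cells Plvap led at 697.4 ± 14.1 CPM per kilobase, followed by Cgnl1 at 177.8, Esam at 107.7, F11r at 65.5 and Tjp1 at 46.6. Jam2 at 7.65, Jam3 at 5.86, Cldn5 at 5.68, Ocln at 2.70 and Cgn at 0.219 followed, and only Jam3 and Cldn5 overlapped as neighbours in that order. E17 endocardial cells kept the first 6 places, from Plvap at 770.9 ± 54.0 to Jam2 at 16.9 CPM per kilobase. Cldn5 at 6.58 and Ocln at 5.34 overlapped there, and Jam3 at 4.96 and Cgn at 0.461 came last.

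In E13 coronary cells the leading levels lay close together. Plvap at 128.9 ± 22.9, Esam at 102.4, Cldn5 at 76.6, Cgnl1 at 66.7, F11r at 60.0 and Tjp1 at 54.0 CPM per kilobase each overlapped with the next, so the order of neighbours is not resolved. Plvap and Esam, at 86.6 or more in every library, were above Cgnl1, F11r and Tjp1, at 74.54 or less in every library. Jam2 at 19.4, Jam3 at 8.56, Ocln at 1.34 and Cgn at 0.185 were separate. In E17 coronary cells Cldn5 led at 308.5 ± 23.3 and Esam followed at 241.7, then F11r at 103.1, Tjp1 at 89.1, Jam2 at 46.1 and Cgnl1 at 25.5 CPM per kilobase. Plvap at 9.12 overlapped with Jam3 at 8.38, ahead of Ocln at 1.44 and Cgn at 0.0156.

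**Figure D4:**
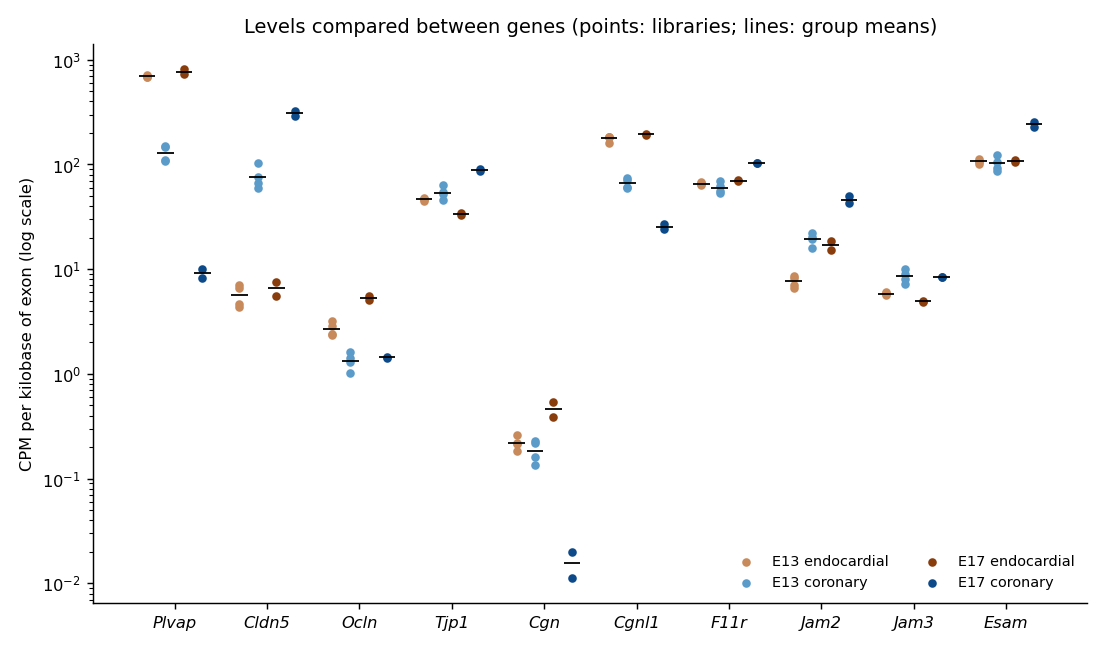
Level of each gene per kilobase of its exons (CPM per kilobase, log axis), with 1 point per library and a line at each group mean, coloured by group. Plvap leads both endocardial groups at 697.4 and 770.9 CPM per kilobase, and Cldn5 leads the E17 coronary group at 308.5 CPM per kilobase.

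The genes whose profile over the 12 libraries lay nearest to that of Plvap were Col23a1, Bex4, Sall1, Rai2 and Hs3st4. Candidates were 9209 tested genes of at least 10 CPM on average. Genes without a symbol, predicted models (Gm and digits) and symbols ending in Rik were left out. Nearness is the root mean square difference of log2 CPM after each gene is centred on its own mean. It was 0.189 for Col23a1, which encodes a transmembrane collagen, and 0.382 for Hs3st4, against a median of 2.30 over all candidates. Col23a1 stood at 628.5 ± 17 and 642.4 ± 24.2 CPM in E13 and E17 endocardial cells, and at 91.0 ± 22.4 and 6.25 ± 0.96 CPM in E13 and E17 coronary cells. For Cldn5 the nearest were Jag2, Tmem255a, Btnl9, Alox12 and Kcnj8, from 0.213 to 0.421. Kcnj8 is also in the mural list and Btnl9 in the coronary capillary list. Jag2, which encodes a Notch ligand, stood at 5.51 ± 0.52 and 6.48 ± 0.18 CPM in E13 and E17 endocardial cells, and at 80.4 ± 18.0 and 256 ± 21.8 CPM in coronary cells.

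Other genes of the same junctions were taken as lists. Of 21 other claudin genes and relatives, 6 were tested. The 15 not tested include 5 with no count in any library, and none of the 15 passed 0.709 CPM in a library, the value of Cldn22. Cldn5 was thus the only tested claudin that was higher in coronary cells at E17, since 4 of the other 6 were lower and 2 did not pass. Cldn11, a claudin known from myelin and the testis, was 16.9 ± 0.55 CPM in E17 endocardial and 1.68 ± 0.25 CPM in E17 coronary cells (-3.33 ± 0.22, edgeR adjusted p = 1.3e-07), although at E13 it was higher in coronary cells (0.84 ± 0.14). Cldn12 (-0.86 ± 0.11), Cldn7 (-3.38 ± 0.47) and Cldnd1 (-0.38 ± 0.07) were lower too, and Cldn15 did not pass at 0.50 ± 0.23. At E13, 3 were higher (Cldn3, Cldn11 and Cldn15) and 3 lower (Cldn7, Cldn12 and Cldnd1). For these and the following lists, 60.0% of all genes tested passed at E13 and 52.6% at E17. The median log2 difference over all genes was -0.02 and -0.01.

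Of 33 other strand and plaque genes 28 were tested, and 7 were higher and 10 lower in coronary cells at E13, 8 and 12 at E17. Their median log2 difference was -0.06 and -0.32, where 60.0% and 52.6% of all genes passed. Lsr, which encodes angulin-1 of tricellular junctions, changed sign between stages, at 0.91 ± 0.12 at E13 and -2.79 ± 0.20 at E17 (edgeR adjusted p = 2.09e-07). Amot (-1.63 ± 0.13) and the polarity gene Pard3 (-1.27 ± 0.10) were lower at E17, Arhgef2 (0.86 ± 0.06) was higher, and the cortactin gene Cttn did not pass at -0.13 ± 0.07.

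All 30 genes of adherens junctions and endothelial contacts were tested, with 11 higher and 12 lower at E13 and 18 and 7 at E17. Their medians were -0.08 and 0.27, where 60.0% and 52.6% of all genes passed. Ptprb, the phosphatase partner of VE-cadherin, was higher in coronary cells at E17 (1.86 ± 0.11), as was the ezrin gene Ezr (1.71 ± 0.10), while the radixin gene Rdx (-1.44 ± 0.09) and Radil (-4.41 ± 0.19) were lower. Rap1a did not pass at 0.16 ± 0.10.

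Of 25 genes known from the brain's endothelial barrier 22 were tested, Cgnl1 among them. At E13, 15 were higher and 6 lower in coronary cells, and at E17 10 and 9. Their medians were 1.11 and 0.27, where 60.0% and 52.6% of all genes passed. Abcb1a, which encodes the efflux pump P-glycoprotein, rose from 7.31 ± 2.5 to 123.9 ± 17.8 CPM in coronary cells and stood at 0.333 ± 0.22 and 1.65 ± 0.22 CPM in endocardial cells. Its E17 difference was 6.22 ± 0.37 (edgeR adjusted p = 5.11e-08). The Wnt7 co-receptor genes Adgra2 (-1.76 ± 0.07) and Reck (-2.90 ± 0.18) were lower, and Tfrc did not pass at 0.63 ± 0.27.

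Of 26 genes listed as possible regulators of claudin-5 or Plvap, 5 were higher and 15 lower in coronary cells at E13. At E17, 10 were higher and 13 lower. The medians were -0.35 and -0.36, where 60.0% and 52.6% of all genes passed. Nr2f2 (-1.87 ± 0.07), Foxc1 (-3.43 ± 0.14), Gpr182 (-1.95 ± 0.09) and the angiopoietin receptor gene Tek (-1.37 ± 0.07) were lower at E17, and Nrp1 did not pass at 0.11 ± 0.10. The 5 that were higher at E13 were Sox17, Sox18, Acvrl1, Erg and Notch4.

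Plvap protein also forms the diaphragm of caveolae, and 12 genes of caveolae and vesicle coats were tested. Of these 7 were higher and 1, Cavin2, lower in coronary cells at E13, and 7 were higher and 2, Pacsin3 and Ror1, lower at E17. The medians were 0.46 and 0.44, where 60.0% and 52.6% of all genes passed. Cav1, which encodes caveolin-1, was 960.4 ± 78.9 CPM in E17 endocardial and 4281 ± 663 CPM in E17 coronary cells (2.16 ± 0.28, edgeR adjusted p = 4.17e-05). Cavin1 (1.15 ± 0.14), Ehd2 (1.24 ± 0.17) and Dnm2 (0.54 ± 0.07) were higher as well, and Cavin2 did not pass at -0.16 ± 0.15. Plvap and Cav1 thus differed between the populations in opposite directions at both stages, Cav1 by 1.23 ± 0.20 at E13 (edgeR adjusted p = 0.00016).

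**Figure D5:**
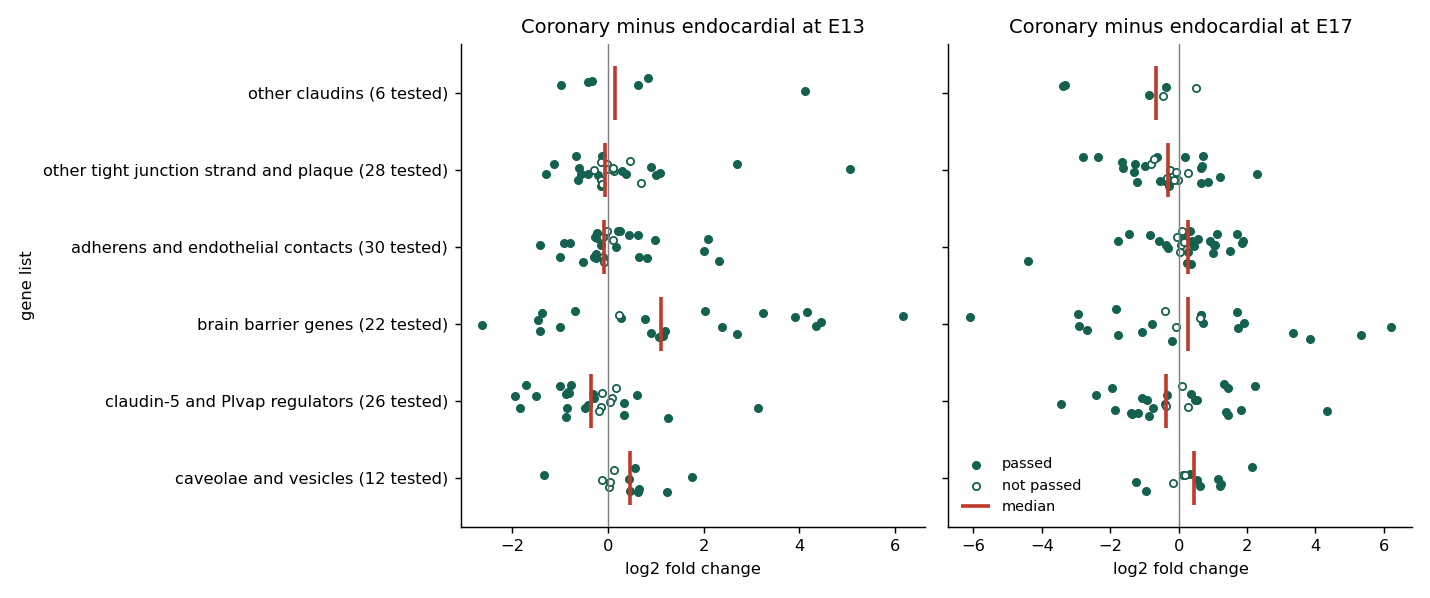
Log2 fold changes, coronary minus endocardial, of every tested gene in 6 lists at E13 (left) and E17 (right); 1 point per gene, filled where the edgeR adjusted p was below 0.05, with a red line at the list's median and vertical scatter for legibility only. Brain barrier genes have the highest median at E13, 1.11, and the other claudins the lowest at E17, -0.66.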

How the data were processed

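RNA from 12 sorted endothelial samples of mouse embryos was sequenced as single reads from NEBNext Ultra polyA libraries, a kit that does not mark strand, per the labels' protocols. The deposited table holds expected counts per Ensembl gene, estimated by the authors with RSEM 1.2.3 on GRCm38 after CASAVA 1.8.2 and cutadapt 1.3, per the submitters' processing notes. Not whole were 18.3% of its values, and counts were rounded here. Symbols were matched for 40254 of 41214 genes.

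Genes were filtered with filterByExpr (minimum count 10, total 15), scaled by TMM and tested with edgeR 4.0.16 (quasi-likelihood, R 4.3.3) in 1 fit of 4 group means with 8 residual degrees of freedom. Benjamini-Hochberg adjustment ran over all 15171 genes tested, and the threshold was 0.05. SE is the log2 fold change divided by the square root of F. The common biological coefficient of variation was 0.126. CPM per kilobase divides by the union of exons in GENCODE M21, and 0.05 CPM was added before log2 in profiles, 0.5 counts in the Cldn5 to Plvap ratio. On simulated data for the E17 population comparison (14786 genes), the fit called 76% of genes changed 2-fold and 95% of those changed 4-fold. Only 100 genes were changed at each fold, all raised in E17 coronary libraries and none of low count. In the data 52.6% of all genes passed in that comparison, in both directions. The simulated shares therefore need not hold for these data or for genes as low as Cgn.

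Each batch label holds 1 endocardial and 1 coronary library. Deviations from the group means of libraries in the same batch correlated in each E13 batch (r = 0.377, 0.682, 0.367 and 0.478) and at E17 (0.38, where 2 pairs give 1 value). Between different E13 batches r ran from -0.508 to 0.439. The 0.439 was between the endocardial library of batch 3 and the coronary library of batch 4, above the 0.367 within batch 3. The correlations thus did not single out the labelled partner in batch 3. The fit with the batch labels as a block is an alternative. Other alternatives were DESeq2 1.42.0, other scalings and filters, a fit of the compared groups only, and leaving out each library. Replicates differed beyond sampling noise (chi-square per gene 4.63 to 45.7). The number of libraries limits the precision.

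The 10 genes, the gene lists and the tests were chosen with earlier results of these data known. Named from each junction list are up to 4 genes with the smallest adjusted p at E17 and the most abundant that did not pass. Other genes were named after their values were seen. From the junction lists these were Cldn3, Sox17, Sox18, Acvrl1, Erg, Notch4, Pacsin3 and Ror1, given beside counts of 5 or fewer. Among the markers they were Cdh11, Nfatc1, Gata4, Gata5, Tbx20, Krt7, Krt8, Krt18, Krt19, Tbx18, Aldh1a2 and Epcam. Markers named in the same way were Cd36, Col1a2, Dcn, Lum, Pdgfra, Mfap5 and Mmrn1. Promoter windows are RefSeq's (GRCm38.p6), and the CCAAT and GC boxes were added to the motifs after the sequences were seen.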

Additional observations from a re-analysis of the deposited data

Results flagged for a closer look

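For 8 of the 10 genes the coronary minus endocardial difference at E17 departed from that at E13 in the interaction test (edgeR adjusted p from 1.38e-07 to 0.0168), where 32.7% of all genes tested passed. On the log2 scale the change was -3.97 for Plvap, -4.54 for Cgn, -1.51 for Cgnl1 and -0.88 for Ocln. It was 1.802 for Cldn5, 1.24 for Esam, 1.202 for Tjp1 and 0.68 for F11r. Esam and F11r had E13 differences that did not pass, of -0.07 and -0.13, and E17 differences of 1.16 and 0.55.

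Cgnl1 in E13 endocardial replicate 2, at 1262 CPM, lay apart from the other three libraries of that group, at 1420 to 1451 CPM. Its gap to the nearest of them is 0.839 of the range, above Dixon's 95% critical value for 4 samples. Of 20 groups of 4 examined this was the 1 that stood out, and chance gives about 1 in 20.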

How the results depend on the processing

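The number of the 10 genes that passed stayed within 1.5 times its reported value in every alternative run. With an E13 library left out it ran from 6 to 8 at E13, beside 55.6% to 58.9% of all genes. It stayed at 10 at E17, beside 51.6% to 53.9%, and at 8 for the coronary stage comparison, beside 47.2% to 50.8%. It was at most 4 for the endocardial stage comparison and at most 8 for the interaction, beside 28.1% to 34.3% and 29.5% to 35.2%. The E17 groups hold 2 libraries each, so no count is given with an E17 library left out. The calls lost that way are given above with Tjp1, Ocln and Cgn. With the replicate block (batch) the number that passed was 7 at E13, 10 at E17 and 8 for the interaction, beside 60.1%, 52.4% and 32.7% of all genes. The block changed no call of the 30 fold changes. Between stages no paired analysis was possible because no batch spans both. With only the compared groups in the fit, 6 genes in place of 4 passed between stages in endocardial cells, beside 37.8% of all genes in place of 31.8%.

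Of the fold changes recomputed, 894 kept their direction and their side of the threshold, 10 no longer passed, 3 newly passed and 13 changed sign. None of those 13 had passed. The endocardial stage change of Esam was -0.005 with DESeq2 size factors, -0.017 with upper quartile scaling, -0.010 without a filter, -0.007 with DESeq2's Wald test and -0.044 to 0.047 with a library left out. With a library left out, the E13 difference of Esam ran from -0.152 to 0.021, the endocardial stage change of Cldn5 from -0.051 to 0.409, the coronary stage changes of Ocln from -0.018 to 0.202 and of Jam3 from -0.117 to 0.042, and the Jam2 interaction from -0.030 to 0.260. The cause was not tested.

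Divided by exon length, the log2 ratio of Cldn5 to Plvap was -6.97 in E13 endocardial, -6.88 in E17 endocardial and 5.08 in E17 coronary cells, as the exons of Plvap are longer. Cgn in E17 coronary cells rests on 3 counts, so its fold is limited by depth.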
